A study of Glycine max with 54 samples.

Results

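The data described here are the 3 mock libraries of the soybean genotype P203 and the 3 mock libraries of Dongnong47, all taken 24 hours after the start of caging (24 HAI, hours after infestation). Dongnong47 is labelled susceptible to the soybean aphid, Aphis glycines, and P203 is the antixenotic genotype of the study. They were compared over the genes whose identifiers place them on chromosomes 1 to 13, which are 32958 of the 53971 loci in the deposited files, and a gene without a line in a library was taken to have a count of 0. Mock leaflets carried the same cages as infested leaflets but no aphids, on the first fully expanded trifoliolate of seedlings, so that neither group had been fed upon. The 6 libraries are part of a series of 54, in which P203, Dongnong47 and the antibiotic genotype P746 were sampled with and without aphids at 24, 48 and 96 HAI. Replicates are biological by the study's account, but whether each was 1 plant or a pool is not given, and each genotype is a single line, so any difference below is between these lines.

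Antixenosis is resistance that keeps an insect from settling or feeding, whereas antibiosis harms the insect that does feed. Either can rest on traits that a plant has before attack, such as surface structures, constitutive metabolites or receptors, or on a response mounted after it. In leaves, responses to aphids run largely through salicylic acid (SA) and jasmonic acid (JA), through WRKY and other transcription factors (TFs), and through callose, a polymer that can seal the sieve tubes on which aphids feed. Leaves without aphids show the state in the absence of feeding. These leaves had been caged, so that state need not be constitutive alone.

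Total counts of the 6 libraries over all loci ran from 20244555 to 27839390, and over chromosomes 1 to 13 from 13575179 to 18440516, with 25889 to 27460 genes counted per library. Levels are given as CPM, counts per 1000000 of the chromosome 1 to 13 total times its TMM factor, a correction for composition that ran from 0.808 to 1.11. One count was worth 0.0512 to 0.0671 CPM. Correlations of log2(CPM + 0.5) were 0.869 to 0.962 within Dongnong47, 0.783 to 0.958 within P203 and 0.758 to 0.938 between the genotypes, across 22468 genes that are not independent replicates. The 2 lowest values within P203, 0.783 and 0.866, both involved P203 replicate 1, whereas P203 replicates 2 and 3 correlated at 0.958 with each other and at 0.887 to 0.938 with the Dongnong47 libraries. Dongnong47 replicate 2 correlated at 0.869 and 0.886 with the other Dongnong47 libraries. With P203 replicates 1, 2 and 3 it correlated at 0.758, 0.916 and 0.887. No identifier was paired with a leaf marker in the sources used here, so the tissue label was not checked by markers.

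Few genes were called between the genotypes with 3 libraries each, and those that were called differed by a large factor. Smaller differences can go uncalled with so few libraries. Neither the number nor the size of the calls therefore describes all differences between the lines. Of 22468 genes tested, 22 were higher in P203 (0.0979% of the genes tested) and 19 were higher in Dongnong47 (0.0846%), 41 in all (0.182%), at an adjusted p under 0.05 (edgeR quasi-likelihood test, Benjamini-Hochberg) and at least a 2-fold difference (an absolute log2 fold change of 1). In the 35 with counts in both genotypes the absolute log2 fold change ran from 2.01 to 10.50 with a median of 5.13. With the other 6, which had no count in one genotype, set at the lower bound that 3 counts over the group give, the median of the 41 was 6.58 and 37 were at 3 or above, whereas the median over all genes tested was -0.01. The smallest adjusted p was 0.00718, the largest among the calls was 0.0466, and the next gene in order was at 0.0528. In each of the 41 genes the 3 libraries of one genotype lay above the 3 of the other, which held for 9.82% of all genes tested. The same 6 libraries chose the 41 genes, so this separation is no further finding. In whole leaf tissue, fewer cells of a type and less RNA per cell cannot be told apart.

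**Figure D1:**
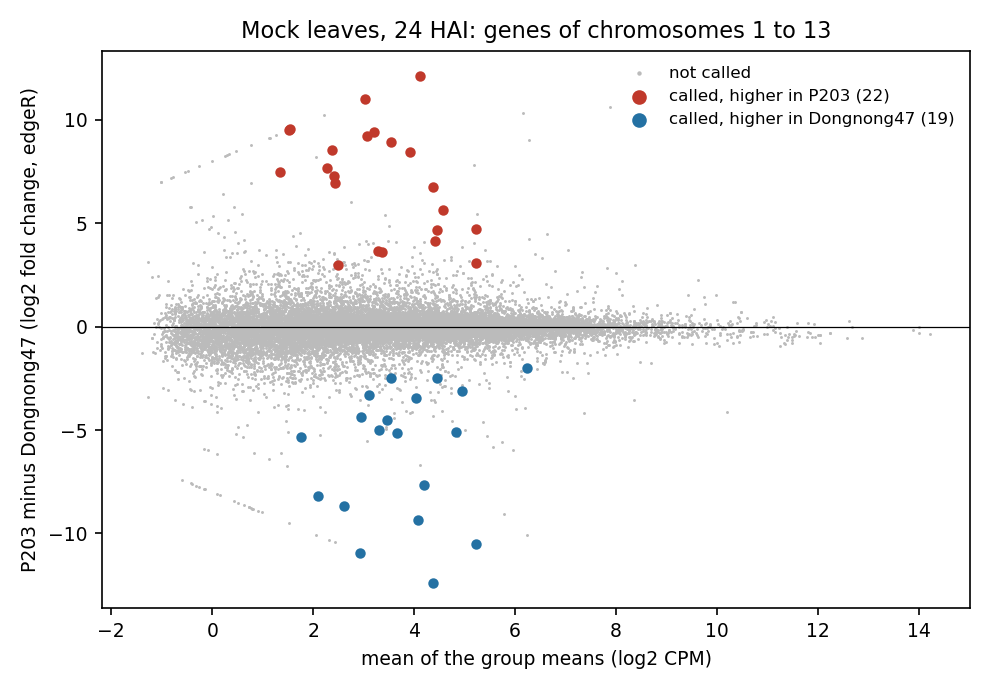
Each point is 1 of 22468 genes, with the mean of the 2 group means on the horizontal axis (log2 CPM) and the difference P203 minus Dongnong47 on the vertical axis (log2 fold change from edgeR). Red points are the 22 genes called higher in P203, blue points the 19 called higher in Dongnong47, and grey points the rest, and values of genes without a count in one genotype depend on the prior count that edgeR adds; the calls lie far from 0 on both sides, and some grey points lie as far out.

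These calls depended on single libraries and on the model. With replicate number added to the fit, 0 genes were called (1391 at an unadjusted p under 0.05, smallest edgeR adjusted p = 0.0587). The study names no pairing of libraries by number. The count fell to 0 without Dongnong47 replicate 1 (956 genes at an unadjusted p under 0.05), to 0 without Dongnong47 replicate 3 (741 genes) and to 0 without P203 replicate 3 (758 genes), and it was 14 without Dongnong47 replicate 2, 5 without P203 replicate 2 and 33 without P203 replicate 1. The 41 genes kept their direction in each of these 6 fits, but separate libraries in the choice of the genes left little room for another outcome. DESeq2 called 347 genes, 171 higher in P203 (0.769%) and 176 higher in Dongnong47 (0.792%), which is 1.56% of the genes to which it gave an adjusted p, with the 41 genes among them, and 1097 genes (4.88%) had an unadjusted p under 0.05 in edgeR.

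Among the called genes with a count in every library, the 6 with the largest difference on the P203 side were the following. GLYMA04G07310 had 0.0671, 0.0512 and 0.124 CPM in the Dongnong47 libraries, which were only 1, 1 and 2 counts, so its fold change is imprecise. It had 17.1, 8.05 and 7.0 CPM in the P203 libraries, in replicate order (log2 fold change 6.94, SE 0.634, edgeR adjusted p = 0.0217). GLYMA03G24190 had 0.269, 0.358 and 0.498 CPM in Dongnong47 and 36.9, 47.7 and 38.5 CPM in P203 (6.74, SE 0.336, edgeR adjusted p = 0.00718). In both genes the lowest P203 library was more than an order of magnitude above the highest Dongnong47 library. GLYMA09G34200 had 0.738, 0.768 and 1.24 CPM in Dongnong47 against 31.8, 53.3 and 55.2 CPM in P203, a log2 fold change of 5.66 (SE 0.392, edgeR adjusted p = 0.0111). In the other 3 genes each Dongnong47 library was above 1 CPM. GLYMA09G04820 stood at 2.69 ± 0.458 CPM in Dongnong47 and 71.7 ± 20.5 CPM in P203 (SD, n = 3 each), GLYMA06G40670 at 1.65 ± 0.572 and 42.2 ± 19.3 CPM, and GLYMA02G05081 at 2.26 ± 0.229 and 40.2 ± 5.80 CPM, and no library of one genotype overlapped the other (log2 fold changes of 4.74, 4.67 and 4.15, edgeR adjusted p = 0.0111, 0.0298 and 0.00718).

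On the Dongnong47 side, the largest difference among genes counted in every library was in GLYMA01G05710, with 8.19, 4.81 and 6.72 CPM in the Dongnong47 libraries and 0.131, 0.200 and 0.131 CPM in the P203 libraries (log2 fold change -5.35, SE 0.474, edgeR adjusted p = 0.0193). GLYMA11G12980 had 25.1, 21.9 and 27.3 CPM in Dongnong47 against 0.980, 0.399 and 0.720 CPM in P203 (-5.13, SE 0.394, edgeR adjusted p = 0.0143). GLYMA09G31820 was the most abundant of these 6, at 67.3, 43.5 and 54.4 CPM in Dongnong47 and 1.44, 1.46 and 1.96 CPM in P203 (-5.08, SE 0.304, edgeR adjusted p = 0.00718). All 3 were below 2 CPM in each P203 library. GLYMA08G08660 stood at 19.1 ± 7.86 CPM in Dongnong47 and 0.591 ± 0.224 CPM in P203, GLYMA06G40740 at 21.2 ± 6.48 and 0.922 ± 0.349 CPM, and GLYMA04G02464 at 14.8 ± 3.59 and 0.704 ± 0.383 CPM (SD, n = 3 each), with log2 fold changes of -4.99, -4.51 and -4.38 (edgeR adjusted p = 0.0298, 0.0270 and 0.0446).

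The remaining calls went down to a log2 fold change of -2.01 in GLYMA12G31620, which was also the most abundant called gene, at 120.0 ± 5.72 CPM in Dongnong47 and 29.8 ± 4.94 CPM in P203 (SD, n = 3 each). Of the 41 calls, 22 had a count in every library, 11 had only 1 to 3 counts over the 3 libraries of the lower genotype, and 6 had none there. For the 11 genes with 1 to 3 counts the ratio of the summed rates is imprecise: for GLYMA02G06860, with 1396, 898 and 1351 counts in Dongnong47 and 1, 0 and 1 in P203, it was 1650 (95% exact interval 455 to 13600, counting error only). On the P203 side, GLYMA06G37286 had 0, 1 and 0 counts in Dongnong47 and 301, 304 and 236 in P203, a ratio of 932 (167 to 36800). At most 5 counts were found over the Dongnong47 libraries for 13 of the 22 genes higher in P203, and over the P203 libraries for 6 of the 19 genes higher in Dongnong47.

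Genes without a count in one genotype were then taken over all 32958 genes of chromosomes 1 to 13, as those with a count of 0 in its 3 libraries and a level of 1 CPM or more in all 3 libraries of the other. There were 16 such genes with counts only in P203 (0.0485% of 32958) and 20 with counts only in Dongnong47 (0.0607%), and no test was made of these numbers. A count of 0 over 3 libraries allows a mean level of up to 0.0594 CPM in Dongnong47 and 0.0658 CPM in P203 (3 counts over the group, counting error only). All 36 entered the edgeR test, which called 4 of the 16 and 2 of the 20, and DESeq2 called all 36. Loss of the gene from a genome, a silent gene and reads too different from the reference to be placed cannot be told apart in these counts, and reads of near-identical copies may have been divided between them by the authors' counting.

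The gene with the highest level among those counted only in P203 was GLYMA11G33071, with 427, 622 and 529 counts in the 3 P203 libraries and none in Dongnong47, at least 583-fold higher against the limit of 3 counts. GLYMA02G39180 had 249, 243 and 248 counts (at least 273-fold higher), which were nearly the same in the 3 P203 libraries. GLYMA11G33490 had 84, 90 and 86 counts (at least 96.0-fold higher) and GLYMA03G07350 102, 90 and 74 counts (at least 98.2-fold higher). These 4 genes were the ones edgeR called, with adjusted p of 0.0143, 0.0150, 0.0449 and 0.0466 in that order. GLYMA03G01240, with 213, 73 and 138 counts, and GLYMA13G43070, with 54, 101 and 62 counts, varied more among the P203 libraries and were not called (edgeR adjusted p = 0.0782 for both). The other 10 had lowest libraries of 1.07 to 3.07 CPM.

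Among the genes counted only in Dongnong47, GLYMA08G18211 stood highest, with 735, 559 and 743 counts against none in P203, at least 613-fold higher (edgeR adjusted p = 0.0193). GLYMA04G12703 followed with 252, 193 and 304 counts, at least 225-fold higher (edgeR adjusted p = 0.0372). These 2 were the called ones. GLYMA08G20471 had 172, 115 and 123 counts and GLYMA02G27790 60, 92 and 135 counts, with edgeR adjusted p of 0.0539 and 0.0782. GLYMA08G16520, with 245, 67 and 198 counts, and GLYMA03G07841, with 305, 66 and 99 counts, were lowest in Dongnong47 replicate 2 and had edgeR adjusted p of 0.144 and 0.207. The other 14 had lowest libraries of 1.08 to 3.30 CPM.

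**Figure D2:**
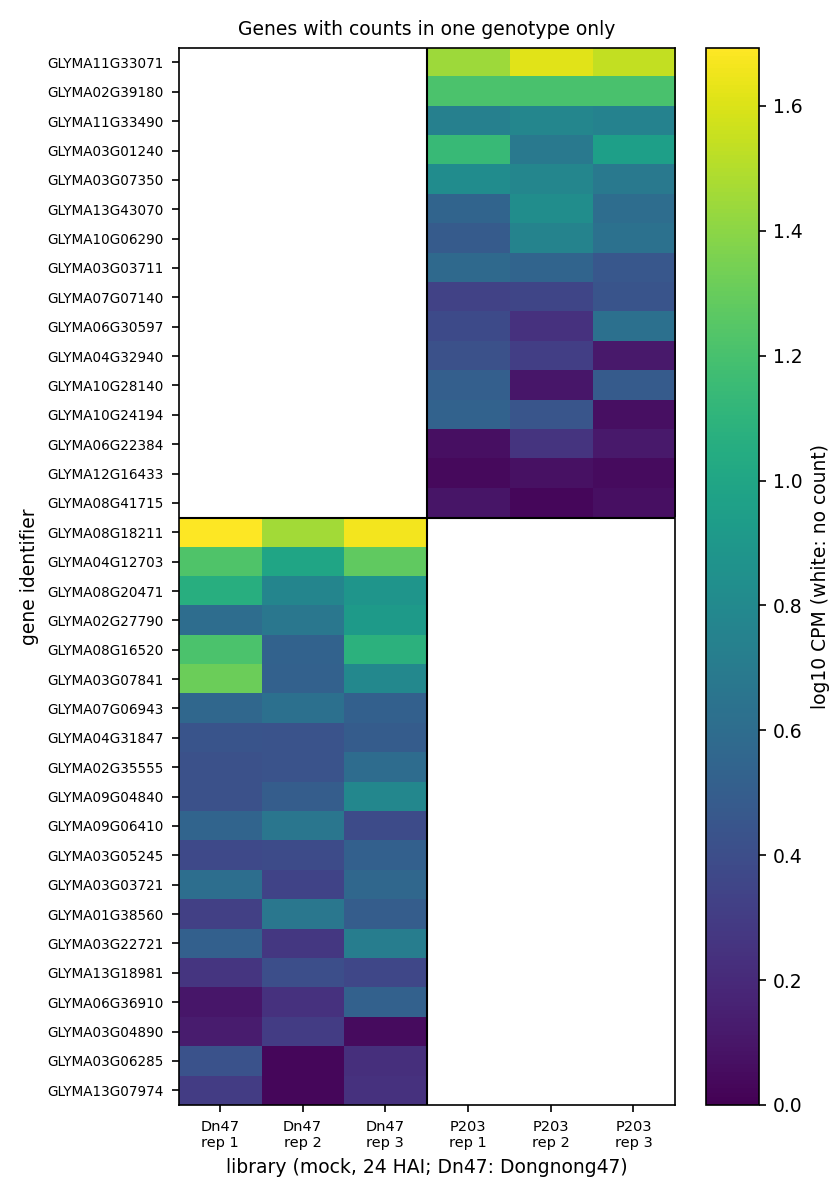
The 36 genes (rows) with counts in 1 genotype only, by library (columns), coloured by log10 CPM, with white for a library without a count. The upper 16 genes were counted only in P203 and the lower 20 only in Dongnong47; most lie at a few CPM, and GLYMA11G33071 and GLYMA08G18211 stand highest on their sides.

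Other libraries of the same lines, which had no part in choosing these genes, were used to ask whether the differences recurred. In infested leaves at 24 HAI, edgeR called all 41 genes again in the same direction, where it called 1.56% of all 23747 genes tested. In mock leaves at 48 HAI it called 37 of the 41 (1.45% of all genes tested), and in mock leaves at 96 HAI 29 of the 41 (0.428%), of which 40 could be tested. None was called in the opposite direction, the fitted change had the same sign in 41, 41 and 40 genes, and 28 genes were called in all 4 comparisons. The median log2 fold change, taken toward the sign found at 24 HAI in mock leaves, was 6.72, 5.94 and 5.50 in the 3 other comparisons, with 6, 8 and 6 genes without a count in one genotype set at their lower bound, against 6.58 in the first. DESeq2 called again 78.4%, 71.8% and 56.8% of its 347 genes, where it called 6.84%, 13.3% and 2.35% of all genes.

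**Figure D3:**
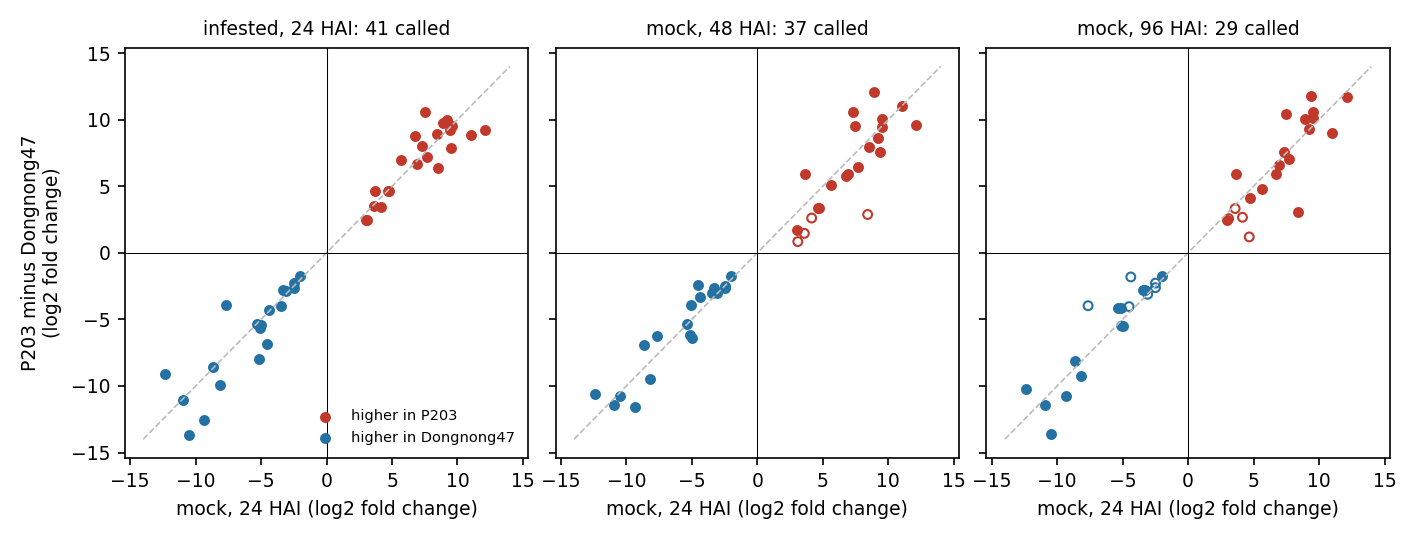
Each panel plots the log2 fold change of P203 minus Dongnong47 (edgeR) of the 41 genes in other libraries on the vertical axis against that in mock leaves at 24 HAI on the horizontal axis. Filled points were called again (41, 37 and 29), open points were not, red genes were higher in P203 and blue genes in Dongnong47, the dashed line marks equal values, and fitted values of genes without a count in one genotype depend on the prior count; no gene lies in a quadrant of opposite signs.

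At 48 HAI the genes not called again were GLYMA01G00590, GLYMA02G05081, GLYMA05G30930 and GLYMA06G44830, with log2 fold changes of 0.84, 2.61, 1.46 and 2.88 (edgeR adjusted p = 0.511, 0.0944, 0.374 and 0.0680). GLYMA06G44830 had been at 3, 1 and 0 counts in Dongnong47 and 451, 437 and 495 counts in P203 at 24 HAI, a log2 fold change of 8.43, and the interaction with 48 HAI was -5.55 (edgeR adjusted p = 0.412). At 96 HAI, GLYMA09G31820 and GLYMA06G40740 kept fitted log2 fold changes of -5.50 and -4.04 with edgeR adjusted p of 0.421 and 0.287, while GLYMA06G40670 fell to 1.19 (edgeR adjusted p = 0.620).

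Over all other libraries, 15 of P203 and 14 of Dongnong47, 16 of the 22 genes called higher in P203 and 15 of the 19 called higher in Dongnong47 had libraries of the genotypes that did not overlap, against 0.668% of all genes tested in either direction. The fifteenth other Dongnong47 library, labelled infested, 96 HAI, replicate 1, was left out of these counts because it went against its label: 38 of the 41 genes (92.7%) lay on the P203 side of the midpoint between the genotypes in it, compared with 0 to 3 genes in each of the other 14 libraries of Dongnong47 and 32 to 41 in each of the other 15 of P203. In it 15 of the 16 genes counted only in P203 had counts, 14 of them at 1 CPM or more, and none of the 20 counted only in Dongnong47 reached 1 CPM. The same 41 genes marked that library, so the counts without it are not independent of its removal. With that library included, the genotypes did not overlap in 0 of the 22 and 3 of the 19 called genes, against 0.0668% of all genes tested. It enters none of the comparisons tested here except the single fit of all 54 libraries, which was an alternative.

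**Figure D4:**
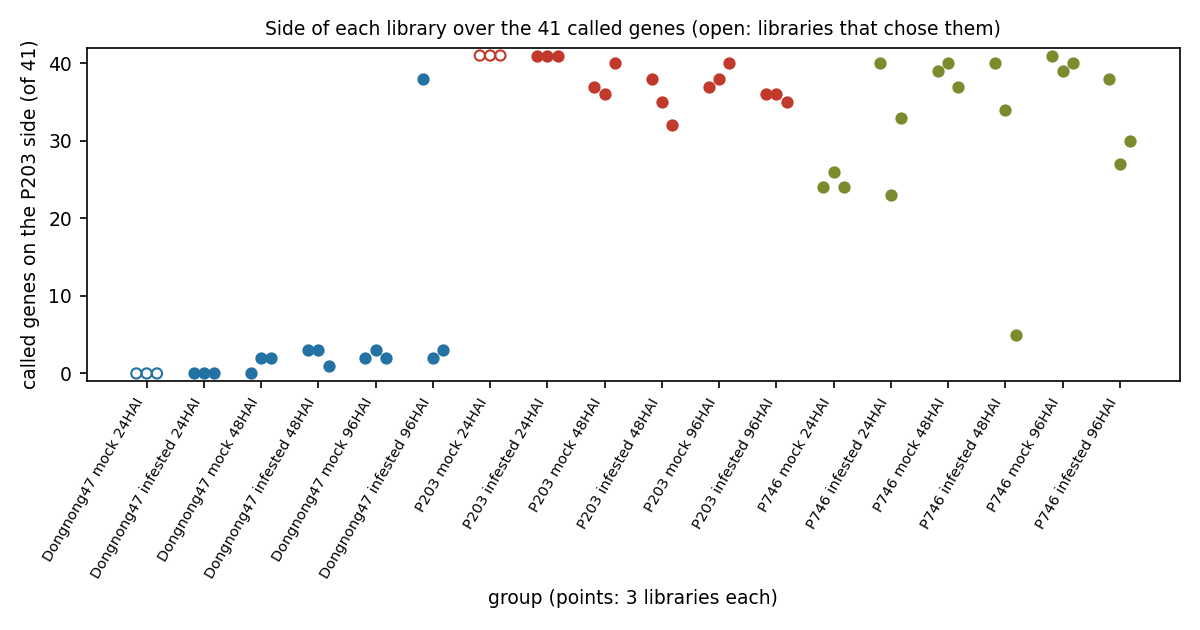
For each of the 54 libraries, grouped by genotype, treatment and time, the vertical axis gives how many of the 41 genes lie on the P203 side of the midpoint between the 2 mock groups of 24 HAI. Open circles are the 6 libraries that chose the genes, so their 0 and 41 are no finding; the Dongnong47 libraries otherwise hold 0 to 3 except for 1 at 38, the P203 libraries hold 32 to 41, and the P746 libraries spread from 5 to 41.

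The genes counted in one genotype only kept that pattern in most but not all cases. Of the 16 counted only in P203, 15 stayed below 1 CPM in each of the 14 other Dongnong47 libraries and 3 had no count in any of them, while 14 had counts in all 15 other P203 libraries. Of the 20 counted only in Dongnong47, 19 stayed below 1 CPM in each of the 15 other P203 libraries, 6 had no count in any, and 16 had counts in all 14 other Dongnong47 libraries. With the library that went against its label these counts were 2, 1 and 14 for the 16 genes and 19, 6 and 4 for the 20 genes. Without it, fewer genes kept the 1 CPM by which they were chosen than kept a count. In all 15 other P203 libraries, 12 of the 16 reached that level, and in all 14 other Dongnong47 libraries 10 of the 20 did. Without the library that went against its label, GLYMA08G18211 remained between 22.9 and 152 CPM in the other Dongnong47 libraries and at or below 0.140 CPM in the other P203 libraries. GLYMA11G33071 remained between 33.8 and 127 CPM in P203 and, again without that library, at or below 0.331 CPM in Dongnong47. In that library GLYMA08G18211 was at 0.154 CPM and GLYMA11G33071 at 126 CPM.

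The exceptions to staying below 1 CPM in the other genotype were GLYMA03G01240 and GLYMA03G05245, singled out after their values were seen. GLYMA03G01240 had no count in the mock libraries of Dongnong47 at 24 HAI but reached 2.92, 3.34 and 6.07 CPM in its mock libraries of 48 HAI and 2.44, 1.92 and 4.16 CPM in those of 96 HAI, whereas the 15 other P203 libraries stood at 6.57 CPM or more. Its levels in Dongnong47 thus differed between the times of sampling. GLYMA03G05245, counted only in Dongnong47 at 24 HAI in mock leaves, was above 1 CPM in 5 of the 15 other P203 libraries, at up to 2.26 CPM. GLYMA06G30597 and GLYMA08G41715, counted only in P203, had no count in 9 and 6 of the 15 other P203 libraries either. GLYMA03G06285, counted only in Dongnong47, had none in 8 of the 14 other Dongnong47 libraries. For GLYMA04G31847, GLYMA09G04840 and GLYMA08G16520, on the same side, this held in 2, 2 and 1 of those libraries.

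Whether the difference between the genotypes itself changed with time or aphids was tested as an interaction over 12 libraries each. Between infested and mock leaves of 24 HAI edgeR called 2 of 24292 genes (0.00823%), between 48 and 24 HAI in mock leaves none of 23995, and between 96 and 24 HAI 1 of 24337 (0.00411%), with 645, 1836 and 761 genes at an unadjusted p under 0.05. DESeq2 called 46, 98 and 19 (0.192%, 0.411% and 0.0817%). None of the 41 genes was among the edgeR calls, and 1, 1 and 3 of them were among those of DESeq2. The nearest members were in the comparison with 96 HAI: GLYMA06G44830 had an interaction of -5.38 on the log2 scale (edgeR adjusted p = 0.251). GLYMA03G01240, not one of the 41, had an edgeR adjusted p of 0.136, and no size is given because its Dongnong47 libraries of 24 HAI had no count. A p that misses the threshold does not show that the difference stayed the same.

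The called genes were spread over all 13 chromosomes, with 1 to 7 on each. Chromosome 6 held the most, 7 of 1903 genes tested (0.368%), followed by chromosome 2 with 6 of 1901 (0.316%), against 0.182% of all genes tested. Chromosome 3 held the most genes counted in 1 genotype only, 3 of the 16 in P203 and 6 of the 20 in Dongnong47. These counts are small, and no difference between chromosomes was tested. No run of at least 3 neighbouring genes called in the same direction was found, and no called gene had a called neighbour. DESeq2, with its 347 calls, gave 2 such runs, both higher in Dongnong47, and 10.1% of its calls had a neighbour called in the same direction and 3.46% one called in the opposite direction, compared with 1.56% of genes called overall. Identifier order stood for gene order here.

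The longer run lay on chromosome 3 and held GLYMA03G05772, GLYMA03G05946, GLYMA03G06255 and GLYMA03G06285, of which the first and last had no count in any P203 library and the others log2 fold changes of -2.67 and -2.99 in DESeq2. Its most abundant gene, GLYMA03G06255, had 363, 117 and 396 counts in Dongnong47 and 37, 31 and 36 in P203. The other run, on chromosome 8, was GLYMA08G16506, GLYMA08G16520 and GLYMA08G16550, of which the last 2 had no count in any P203 library and 245, 67 and 198, and 92, 16 and 53 counts in Dongnong47. In all 7 genes Dongnong47 replicate 2 was the lowest of its group, and none passed in edgeR, where adjusted p ran from 0.144 for GLYMA08G16520 to 0.579 for GLYMA08G16506.

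None of the 71 genes called or counted in 1 genotype only is in the study's lists of TFs, JA and SA genes, callose synthases or catalases, so their products are not named here. The lists themselves held no called gene: 0 of 535 tested TFs (21 higher in P203 and 14 higher in Dongnong47 at an unadjusted p under 0.05), 0 of 34 JA genes (1 and 2), 0 of 17 SA genes (3 and 0), 0 of 4 callose synthase genes (0 and 1) and 0 of 2 catalase genes (0 and 0), at edgeR's thresholds. Of all genes tested 0.182% were called, a share at which lists of this size may well hold none. DESeq2 called 12 of the list genes, 2.09% against 1.56% of all genes, and 6.98% of the list genes had an unadjusted p under 0.05 in edgeR against 4.88% of all genes. The study chose its TF, JA and SA genes on libraries of this series, so they are not an independent choice.

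The 12 genes came from 6 TF families and the JA list, and 4 of them are described here, chosen after their values were seen. GLYMA05G07380, of the MADS family (MIKC type), known in plants for control of flowering and organ identity, had 573, 301 and 429 counts in Dongnong47 and 46, 12 and 14 in P203 (log2 fold change -4.08, edgeR adjusted p = 0.135). GLYMA13G40310, an auxin response factor, which binds promoters of auxin-regulated genes, had 14, 27 and 40 counts in Dongnong47 and 141, 215 and 215 in P203 (2.96, edgeR adjusted p = 0.110). GLYMA09G42120 of the TCP family, regulators of cell growth in leaves, had 35, 42 and 31 counts in Dongnong47 and 114, 185 and 133 in P203 (2.14, edgeR adjusted p = 0.110). In none of the 3 did the libraries of the genotypes overlap. The only hormone gene of the 12 was GLYMA11G13070, annotated as AOS, allene oxide synthase, an early enzyme of JA synthesis, with 1038, 1039 and 1616 counts in Dongnong47 and 360, 427 and 549 in P203 (-1.35, edgeR adjusted p = 0.374).

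The median differences of the WRKY, SA and JA lists lay on the P203 side, and they were smaller or on the other side without 1 library, P203 replicate 1. WRKY genes, TFs that bind W-box elements of defence genes, had a median log2 fold change of 1.0 over 52 tested members, 44 of them higher in P203, and the 17 SA genes, among them EDS1, PAD4 and NPR1, which carry and amplify the SA signal, had a median of 0.81 with 14 higher in P203. The 34 JA genes had a median of 0.22 with 23 higher, and none of the 4 callose synthase genes was higher in P203 (median -0.15). In P203 replicate 1, 41 of the 52 WRKY genes (78.8%), 13 of the 17 SA genes and 22 of the 34 JA genes had their highest level of the 6 libraries, against 29.8% of all genes tested. Without that library the medians were -0.06, 0.10 and -0.46, and 24, 10 and 7 genes of the lists were higher in P203. What set this library apart was not tested.

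**Figure D5:**
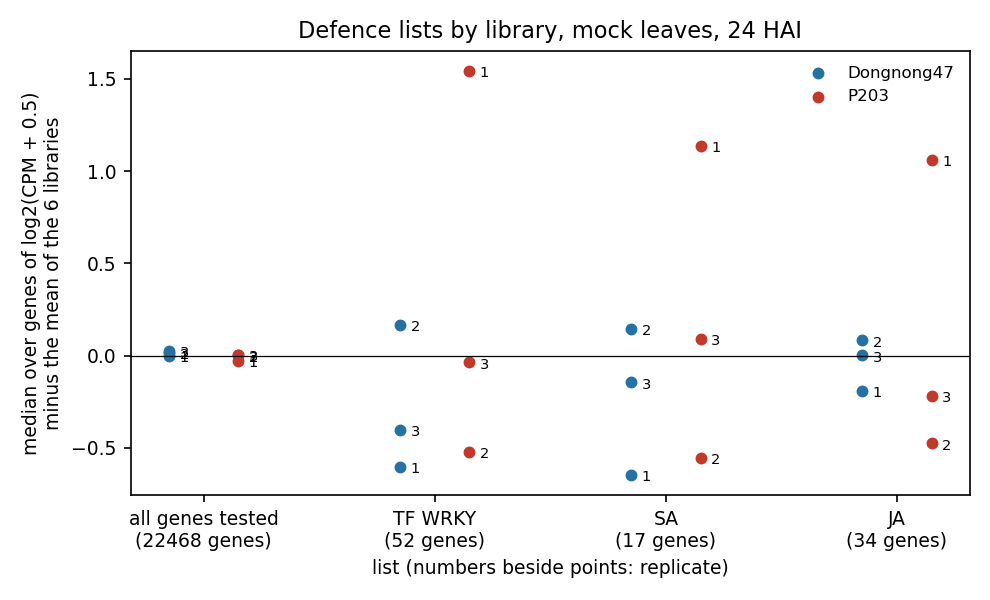
For each list (horizontal axis, with the number of genes tested) and library, the vertical axis gives the median over genes of log2(CPM + 0.5) minus the mean of the 6 libraries, with the replicate number beside each point. P203 replicate 1 stands at 1.54 for WRKY, 1.14 for SA and 1.06 for JA genes, above the other 5 libraries, which lie between -0.65 and 0.17, while over all genes tested the 6 libraries lie together.

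Single genes showed the same library. GLYMA04G38691, annotated as PAD4, had 477, 504 and 346 counts in the Dongnong47 libraries and 3340, 306 and 1210 in those of P203 (log2 fold change 2.0, edgeR adjusted p = 0.974), so the P203 libraries lay on both sides of Dongnong47. GLYMA02G39870, annotated as WRKY33, had 249, 815 and 345 counts in Dongnong47 and 2452, 306 and 572 in P203 (1.45, edgeR adjusted p = 1.0). GLYMA09G41050, annotated as WRKY70, a regulator on the SA side, was higher in each P203 library, with 1915, 1187 and 2169 counts against 644, 719 and 1056, but did not pass (1.25, edgeR adjusted p = 0.593). These 3 were chosen after their values were seen. Without P203 replicate 1, edgeR called 33 genes, 26 of them among the 41. A gene that followed this library would vary widely within P203 and would seldom be called. The 41 genes are therefore not set against the lists here.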

How the data were processed

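The deposited files hold estimated counts per gene, 1 file per library; per the study's methods the authors mapped paired reads with HISAT2 to Glycine_max_v2.1 and counted with StringTie, whereas the labels name CASAVA 1.8 and Bowtie. The files list no zeros. Estimated counts were rounded, with 18.0% to 19.5% of the values in the 6 libraries not whole, and lines without an identifier (1 in 5 of the 6 libraries) were left out. Chromosomes 14 to 20, where 0.0874% to 2.88% of abundant genes lacked a value in these libraries, were left out by rule. Of 59048 RefSeq genes, 0 matched by identifier.

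Members and lists were chosen with earlier results of these data known. Groups came from the sample titles. Tests used edgeR 4.0.16 in R 4.3.3 (quasi-likelihood, TMM factors, filterByExpr at its defaults of 10 counts and 15 in total) on 6 libraries, and on 12 for interactions, with p adjusted over all genes tested. SE values follow from the fold change and its F. DESeq2 1.42.0 was an alternative, beside other normalizations, filters, a replicate block, thinning and each library left out. Steps were tested on simulated data. No 2 libraries agreed within sampling noise (smallest chi-square per gene 30.4); p-values measure the spread between these replicates, and exact (Clopper-Pearson) 95% intervals cover counting error only. The genes named were the 6 largest called differences with a count in every library and the 6 highest genes without a count in the other genotype, in each direction, and the 3 smallest p of each interaction with calls; others are said to be chosen later. Figures used matplotlib 3.10.9.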

Additional observations from a re-analysis of the deposited data

Results flagged for a closer look

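The difference between P203 and Dongnong47 was itself different in infested and mock leaves of 24 HAI in 2 genes, by edgeR's interaction test over 12 libraries. GLYMA07G25710 had an interaction of -3.47 on the log2 scale (SE 0.378, edgeR adjusted p = 0.0383): mock leaves of both genotypes lay between 5.89 and 12.2 CPM, infested P203 leaves had 15.7, 12.4 and 12.95 CPM, and infested Dongnong47 leaves 111, 160 and 119 CPM. GLYMA11G10240 had an interaction of -3.89 (SE 0.434, edgeR adjusted p = 0.0383), with mock leaves between 2.78 and 6.05 CPM, infested P203 leaves at 13.9, 11.8 and 10.1 CPM and infested Dongnong47 leaves at 207, 139 and 127 CPM. The genotypes overlapped in mock leaves in both genes and were separate in infested leaves. The gene next in order, GLYMA02G42860, missed the threshold (-2.0, edgeR adjusted p = 0.0639).

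Between mock leaves of 96 and 24 HAI, 1 gene had such an interaction. GLYMA07G07075 had 5.55, 2.45 and 4.6 CPM in Dongnong47 and 1.86, 1.98 and 1.06 CPM in P203 at 24 HAI, and 0.675, 0.164 and 0.457 CPM in Dongnong47 and 23.0, 19.4 and 17.5 CPM in P203 at 96 HAI, an interaction of 6.88 (SE 0.690, edgeR adjusted p = 0.0213). The difference at 24 HAI alone did not pass (log2 fold change -1.41, edgeR adjusted p = 0.823). CPM here uses TMM factors over all 54 libraries. With single libraries left out, the calls were 0 in each refit of the first interaction except 4 without P203 mock 24 HAI replicate 1. For the second, 1 call remained without Dongnong47 mock 24 HAI replicate 2, or without replicate 1 or 2 of its mock libraries of 96 HAI, and 0 without any other library.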

How the results depend on the processing

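Against 41 calls, DESeq2 gave 347, a single fit of all 54 libraries 157 (35 of the 41), and leaving out a library 0 to 33; RLE normalization, total counts, no filter, all loci, thinning and adjusted p alone gave 34 to 44. A fit with the replicate block called 0 genes (1391 at an unadjusted p under 0.05, smallest adjusted p 0.0587). Deviations of same-numbered libraries correlated at 0.265, 0.260 and 0.09998, the last just under the 0.1 needed to count the numbers as pairs; each library correlated best with its own number, a hint from the data and not from the design. The 41 genes kept their sign in all 14 refits, which use the libraries that chose them, so this is no separate support. Counts only in P203 (16) were 29 with up to 0.1 CPM in place of 0 and 3 with at least 5 CPM, and 17 to 22 without 1 library; those only in Dongnong47 (20) were 3 with at least 5 CPM and 21 to 26 without 1 library. Taking only genes with a line in all 6 files gave no value, since the files list no zeros. Runs were 0 in edgeR, 2 with DESeq2 calls. The interactions (2 with infested 24 HAI, 0 with 48 HAI, 1 with 96 HAI) were 46, 98 and 19 in DESeq2, 0, 0 and 0 with the block, and 0 to 4, 0 to 3 and 0 to 1 without 1 library. List genes called were 0, and 12 in DESeq2. The mock log2 fold change of GLYMA07G25710 ran from -0.16 (without P203 replicate 1) to 0.35 without 1 library, and that of GLYMA11G10240 from -0.12 (without P203 replicate 3), with -0.05 without Dongnong47 replicate 2, to 0.45; neither was called. List medians in other settings were added after seeing the data. The causes of these changes were not tested. Depth limits genes below about 0.06 CPM in a genotype.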

Other observations

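In mock leaves of 24 HAI the antibiotic genotype, P746, was near P203 in some of the 41 genes and near Dongnong47 in others. In the libraries labelled as its mock leaves of 48 and 96 HAI, 37 to 41 of these genes lay on the P203 side. That is within the range of the other P203 libraries, 32 to 41, and whether it reflects time or the labels was not tested. No share over all genes is given beside these counts. In its mock libraries of 24 HAI, 14 of the 22 genes higher in P203 had a mean log2 level nearer to P203 and 8 nearer to Dongnong47, and of the 19 genes higher in Dongnong47, 10 were nearer to P203 and 9 nearer to Dongnong47. GLYMA11G33071, counted only in P203, had no count in the 3 P746 libraries, whereas GLYMA10G43160, called higher in P203, had 413, 551 and 532 counts there against 494, 273 and 301 in P203 and 2, 0 and 0 in Dongnong47. GLYMA02G06860, called higher in Dongnong47, had 1270, 970 and 1555 counts in P746, while GLYMA04G12703 and GLYMA02G36640, on the same side, had none. Counted by library, 24, 26 and 24 of the 41 genes were on the P203 side in mock leaves of 24 HAI, 39, 40 and 37 in mock leaves of 48 HAI and 41, 39 and 40 in mock leaves of 96 HAI. Infested leaves had 40, 23 and 33 at 24 HAI, 40, 34 and 5 at 48 HAI and 38, 27 and 30 at 96 HAI, so that libraries with the same label differed widely. What made the P746 libraries differ from each other was not tested, and their labels were not checked.

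Pairs of members lay close together with opposite directions, a pattern seen after the values were known and not tested. Of 8 pairs among the 71 members that were within 20 identifiers of each other, 6 had 1 gene higher in each genotype, and no background was computed at this distance. Among the 347 DESeq2 calls, 35 had an immediate neighbour called in the same direction and 12 one called in the opposite direction. The neighbours GLYMA03G03711 and GLYMA03G03721 had 58, 53 and 44 and 0, 0 and 0 counts in P203, and 0, 0 and 0 and 61, 43 and 59 counts in Dongnong47. GLYMA06G40670 and GLYMA06G40740, 5 identifiers apart, had 986, 449 and 493 and 18, 16 and 8 in P203 and 25, 43 and 17 and 234, 554 and 314 in Dongnong47. GLYMA09G04820 and GLYMA09G04840, 2 identifiers apart, had 1384, 748 and 1144 and 0, 0 and 0 counts in P203, and 47, 52 and 36 and 39, 62 and 97 in Dongnong47.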
